A study of Mus musculus with 12 samples.

Results

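Interferon-stimulated genes, together with the receptors and transcription factors through which interferons act, were followed across 4 groups of cultured mouse pancreatic cancer cells. The 41 genes were taken as a list of symbols, and a probe set (the group of short probes with which the array reads a transcript) was used where its annotation gave exactly 1 gene symbol and that symbol was on the list. Of the 41 genes, 39 were measured, by 62 of the 45037 probe sets tested. Isg15 was carried only beside another symbol and Ifi44 by no probe set, so neither was analysed here. Where a gene had several probe sets, as 17 genes did, the values below are those of the probe set with the highest mean over all arrays.

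The question of the design was how p53 status changes gene expression in these cells. All cells came from tumors that arise in mice in which Pdx1-Cre, active in the pancreatic lineage, switches on K-ras G12D. The fl-CCs carried a floxed Trp53 that Cre deletes, and the mt-CCs carried Trp53 R172H, the mouse form of a common human p53 mutant. The other groups were fl-CCs transfected with the empty PCB6+1 vector (EV cells) or with human p53 R175H (R175H cells), and both were grown with 0.6 mg/ml G418. All cells were grown to 60% confluency, the untransfected ones without G418, and each group had 3 arrays from separate cultures. Each of the fl and mt genotypes was 1 cell line, so p-values measure the spread between cultures and not between tumors, and p53 status cannot be told apart from other differences between the lines. Trp53 itself was not analysed here.

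Values are log2 expression values, on which a difference of 1 is a doubling. Replicate arrays correlated at 0.994 to 0.996 over all probe sets and mt-CCs with the other groups at 0.959 to 0.962, and no array stood apart from its group. Values under 5 on this scale are called near background, a limit set by hand. A gene was called higher or lower at an adjusted p of 0.05 or less in a limma fit over all arrays, with adjustment over all probe sets tested. Of the markers that could show other cells in the cultures, 8 of 14 leukocyte markers, among them Ptprc, Lyz2 and Cd3e, were near background in every array of each group. Their summed level (the log2 of the summed linear values) ran from 10.37 to 10.44 in fl-CCs, 10.35 to 10.47 in mt-CCs, 10.12 to 10.15 in EV cells and 10.31 to 10.54 in R175H cells. Cd14 weighs most in these sums, with means of 9.94 in fl-CCs, 9.67 in mt-CCs, 9.57 in EV cells and 10.02 in R175H cells. Cd68 (mean 7.66 against 5.75 in fl-CCs) and Coro1a (6.43 against 5.93) were higher and Cd14 lower in mt-CCs, so similar sums do not mean an unchanged list. Epithelial markers were lower in mt-CCs for 9 of 10 genes, against 17.7% of all genes (summed level 14.98 to 15.08 against 15.71 to 15.78 in fl-CCs). Of the 9, Cldn4 was near background in both groups, and Krt19 was not called. Krt18, Krt19 and Krt8 weigh most in these sums, with means of 12.94 to 13.75 in fl-CCs and mt-CCs. The sums thus hide larger falls, from means of 10.53 to 4.58 for Krt20, 11.21 to 5.74 for Muc1 and 12.96 to 8.52 for Krt7. Fibroblast markers were higher in mt-CCs for 6 of 11, against 18.3% of all genes (summed level 10.59 to 10.62 against 7.86 to 8.25), with Col3a1 near background in the other 3 groups. Of the 6, Col3a1 and Col1a1 had the highest means in mt-CCs (9.50 and 8.74), and those of Dcn and Col1a2 were under 5 (4.96 and 4.67). The other 5 (Lum, Postn, Pdpn, Fap and Thy1) were near background in every array of all groups. In EV and R175H cells the epithelial sums were 15.67 to 15.74 and 15.51 to 15.53 and the fibroblast sums 8.24 to 8.35 and 8.39 to 8.46. Cd14 and Coro1a were higher in R175H than in EV cells. A lower value in bulk RNA may mean fewer cells of a type or less RNA per cell, which cannot be told apart here. The part of these marker differences in the results below was not tested.

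Interferons are secreted proteins that warn cells of infection. Type I interferons bind IFNAR1 and IFNAR2 and lead, through JAK kinases, to a complex with STAT2 and IRF9 that binds the interferon-stimulated response element (ISRE), while interferon gamma binds IFNGR1 and IFNGR2 and acts through the gamma-activated site (GAS). The induced proteins sense, cut or trap viral RNA, block viral entry and mark proteins with ISG15, and tumor cells can carry such a program without an infection.

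The ISRE core, read as GAAANNGAAA on either strand, stood in the promoter window (250 bases before to 50 after a RefSeq start, assembly GRCm38.p6) of 15 of the 30 measured members that had a window (50%), against 3.99% of all 27025 genes with one. The GAS, read as TTCNNNGAA, stood in 10 of 30 (33.3%), against 9.55% of all genes. ISRE cores can overlap one another and a GAS, and none was required to stand apart. The 160 bases before the start are shown for genes on which the results below turn, with the ISRE core in capitals. Gbp2, Gbp3, Oas3 and Igtp were called higher in mt-CCs.
Gbp2: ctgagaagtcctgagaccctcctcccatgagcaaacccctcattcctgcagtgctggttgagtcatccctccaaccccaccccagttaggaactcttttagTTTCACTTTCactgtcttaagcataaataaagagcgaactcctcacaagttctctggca
Gbp3: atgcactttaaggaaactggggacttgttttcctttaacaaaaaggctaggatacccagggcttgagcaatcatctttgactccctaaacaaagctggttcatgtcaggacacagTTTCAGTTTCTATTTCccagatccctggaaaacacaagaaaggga
Oas3: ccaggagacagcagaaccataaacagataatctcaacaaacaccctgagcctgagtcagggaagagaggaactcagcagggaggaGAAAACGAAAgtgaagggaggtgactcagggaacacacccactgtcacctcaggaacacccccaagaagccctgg
Igtp: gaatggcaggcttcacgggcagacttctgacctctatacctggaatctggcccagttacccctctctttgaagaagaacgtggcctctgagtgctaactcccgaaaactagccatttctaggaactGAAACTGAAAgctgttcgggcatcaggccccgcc

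The stretches are Gbp2 at chr3:142620503-142620662 on the plus strand, Gbp3 at chr3:142559884-142560043 on the plus strand, Oas3 at chr5:120777660-120777819 on the minus strand and Igtp at chr11:58199396-58199555 on the plus strand. The core of Gbp2 began at position -59 from the start, that of Oas3 at -75 and that of Igtp at -34, and Gbp3 had overlapping cores from -45 and -39. Igtp also had a GAS from -45.

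The neighboring genes Ifit1, Ifit2 and Ifit3 on chromosome 19 are shown because each had its own pattern over the groups.
Ifit3: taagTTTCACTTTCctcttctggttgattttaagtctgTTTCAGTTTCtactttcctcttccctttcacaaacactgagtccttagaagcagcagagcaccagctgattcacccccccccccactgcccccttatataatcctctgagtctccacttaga
Ifit1: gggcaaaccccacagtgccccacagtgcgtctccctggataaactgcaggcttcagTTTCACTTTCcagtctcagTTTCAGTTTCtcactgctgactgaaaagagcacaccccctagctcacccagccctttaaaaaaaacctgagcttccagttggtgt
Ifit2: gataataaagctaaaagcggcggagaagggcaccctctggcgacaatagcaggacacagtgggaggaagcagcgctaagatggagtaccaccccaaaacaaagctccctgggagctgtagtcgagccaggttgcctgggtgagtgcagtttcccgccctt

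These stretches are Ifit3 at chr19:34583369-34583528 on the plus strand, Ifit1 at chr19:34640729-34640888 on the plus strand and Ifit2 at chr19:34550534-34550693 on the plus strand. Ifit3 and Ifit1 each held a pair of ISRE cores and Ifit2 held none in these letters, with a GAS at -241, outside the stretch shown. Among the members with a window, an ISRE core was found in 9 of the 17 that were higher in mt-CCs, 1 of the 2 that were lower and 5 of the 11 that were not called. With p53 R175H, it was found in 3 of the 6 that were higher, 4 of the 8 that were lower and 8 of the 16 that were not called. In the same order, a GAS was found in 7, 0 and 3 of these members for mt-CCs and in 3, 3 and 4 for p53 R175H. A match is a description of the letters and not a sign of binding.

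**Figure D1:**
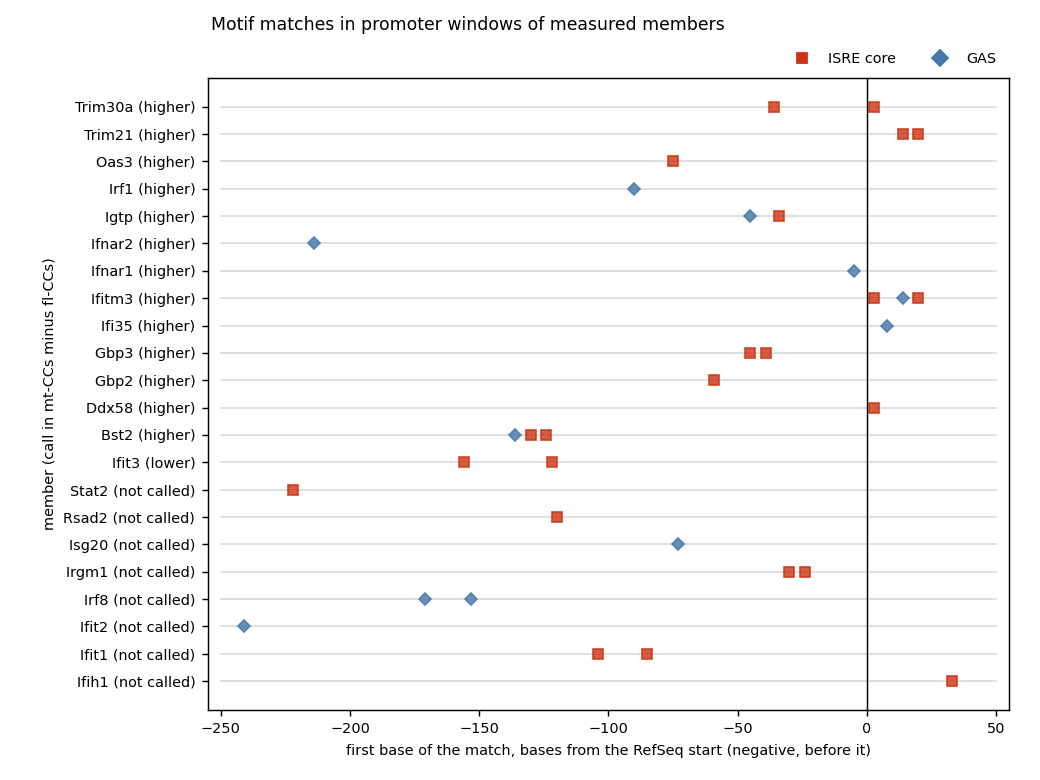
Positions of motif matches in the promoter windows of measured members that hold at least 1 match. The x axis gives the first base of the match relative to the RefSeq start, red squares are ISRE cores and blue diamonds GAS, and the call in mt-CCs minus fl-CCs stands beside each gene; matches occur in genes called higher, in Ifit3, which was lower, and in genes that were not called.

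Between mt-CCs and fl-CCs, 21 of the 39 genes were higher and 3 were lower, where 18.3% of all 18193 genes tested were higher and 17.7% lower. The shares of the members were 53.8% and 7.69%. Their median difference was 0.59, against -0.01 for all genes. For 3 of the higher genes (Oasl2, Trim30a and Iigp1) and 2 of the lower genes (Oasl1 and Mx2) every array of both groups was near background. The largest rises were those of Ifitm3, Gbp2 and Parp14 and the largest fall that of Ifit3.

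With p53 R175H in fl-CCs, 6 members were higher than in EV cells and 8 were lower, against 13.0% and 12.1% of all genes, which is 15.4% and 20.5% of the members. The median difference of the members was -0.02 and that of all genes -0.01. Ifnar2, Ifih1, Ddx58, Irf9, Ifit2 and Ifitm3 were higher. Ifngr1, Stat2, Ifit1, Oasl1, Isg20, Irgm1, Bst2 and Ifi35 were lower. Without EV replicate 3, 4 were lower, and without EV replicate 1 or 2 or R175H replicate 3, 5 were. Members called in both settings were Ifnar2, Ddx58, Irf9 and Ifitm3 (higher in both), Oasl1 (lower in both), and Bst2 and Ifi35 (higher in mt-CCs and lower with p53 R175H).

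The difference between mt-CCs and fl-CCs was above that between R175H and EV cells, with the sign kept, for 17 members and below it for 3, by the test of the difference of the differences, which called 16.1% and 15.9% of all genes. The 3 were Ifih1, Ifit2 and Ifit3.

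**Figure D2:**
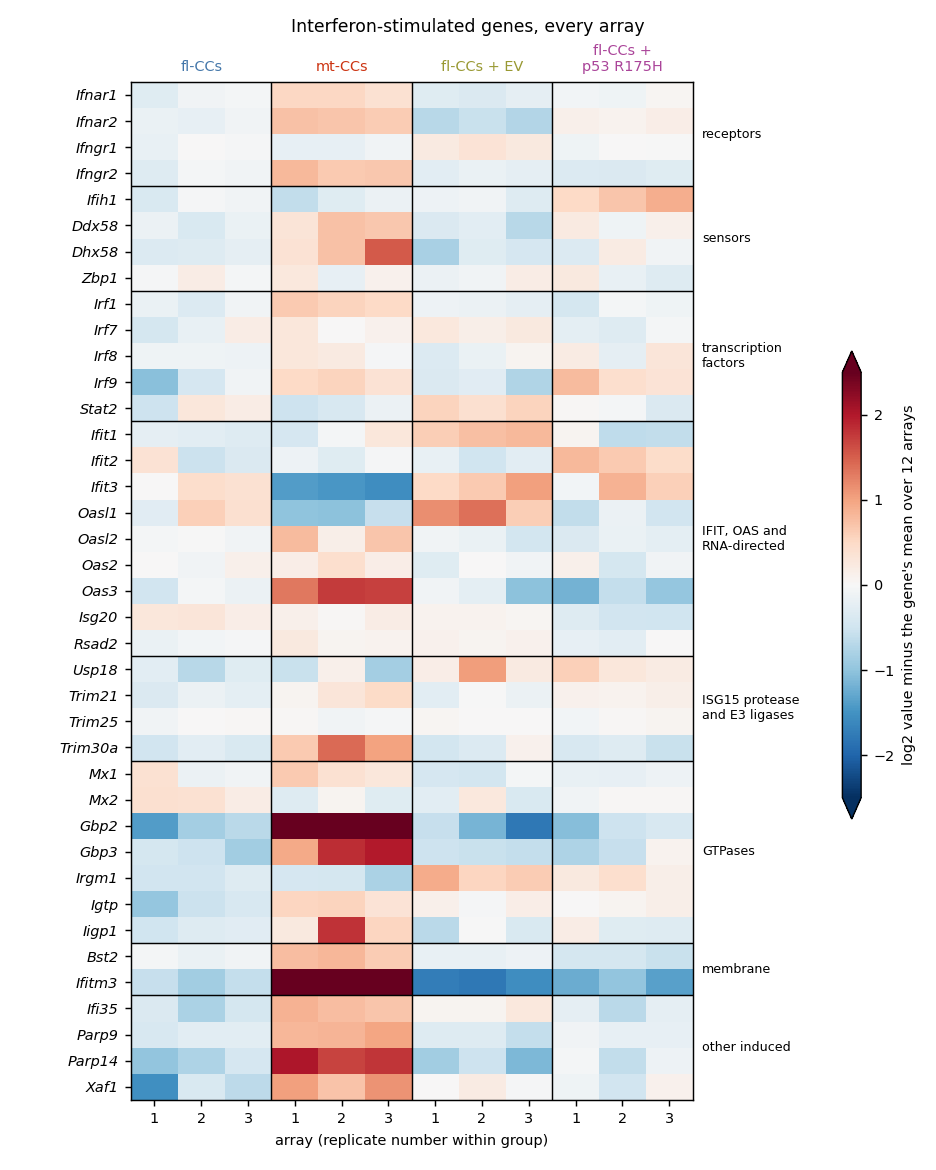
Heat map of the 39 measured members (rows, by role) in the 12 arrays (columns, by group). Colors give the log2 value minus the gene's mean over all arrays and saturate at 2.5; mt-CCs stand out in Gbp2, Ifitm3 and Parp14 in all 3 arrays, and Ifit3 is lowest there.

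**Figure D3:**
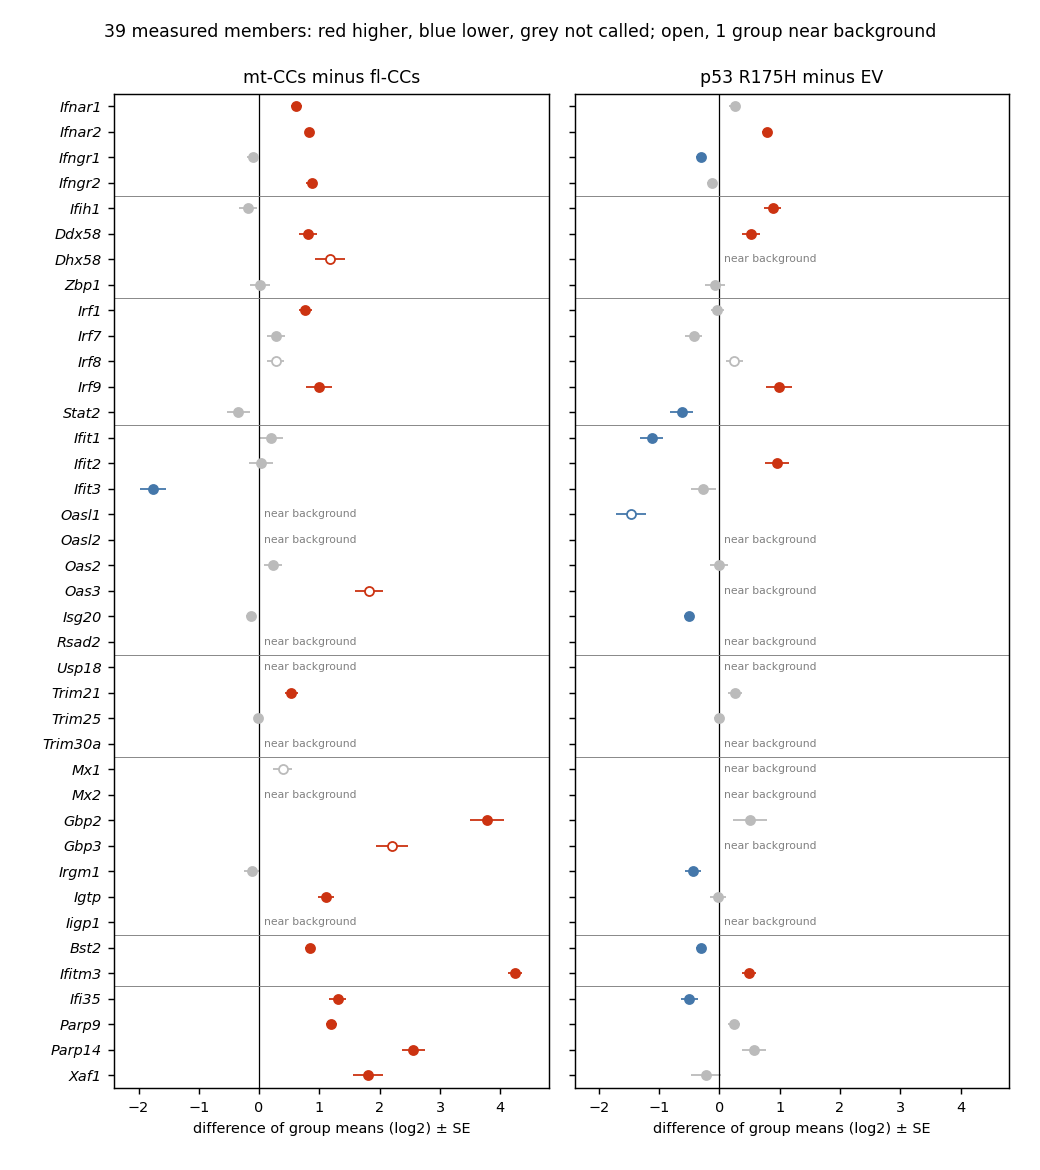
Differences of group means with standard errors for the 39 members, mt-CCs minus fl-CCs on the left and p53 R175H minus EV on the right. Red points were called higher (21 and 6, of which those near background in both groups are not drawn), blue points lower (3 and 8), grey points were not called, and open points had 1 group near background; the rises on the left reach 4.25 and those on the right 0.98.

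Of the 4 receptor subunits, 3 were higher in mt-CCs (75%, against 18.3% of all genes). Ifnar2, the high-affinity chain of the type I receptor, read 10.68, 10.64 and 10.76 in fl-CCs and 11.57, 11.53 and 11.47 in mt-CCs. It read 10.16, 10.28 and 10.11 in EV cells and 10.98, 10.93 and 11.01 in R175H cells. The groups did not overlap in either comparison, and Ifnar2 was higher by 0.83 ± 0.08 (SE, adjusted p = 5.7e-06) in mt-CCs and by 0.79 ± 0.08 (adjusted p = 2.9e-05) with p53 R175H. EV cells lay below fl-CCs by 0.51 (adjusted p = 0.0014). The arrays of R175H cells lay slightly above those of untransfected fl-CCs without overlap, a comparison that was not tested. Of the other probe sets of Ifnar2, both were higher in mt-CCs (1.31 and 0.90), and with p53 R175H 1 was higher (0.74) and the other was not called. Neither was called in EV minus fl-CCs (-0.18 and -0.50, adjusted p = 0.40 and 0.19).

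Ifnar1, the second chain of that receptor, read 8.67, 8.89 and 8.92 in fl-CCs and 9.49, 9.49 and 9.36 in mt-CCs. It read 8.67, 8.61 and 8.76 in EV cells and 8.91, 8.87 and 9.01 in R175H cells. The rise in mt-CCs was 0.62 ± 0.09 (adjusted p = 0.00024), and the difference of 0.25 ± 0.09 with p53 R175H did not pass (adjusted p = 0.076), although the arrays did not overlap. The other probe set of Ifnar1 was not called in either comparison (0.39 in mt-CCs, adjusted p = 0.17). Ifngr2, the signaling chain of the interferon gamma receptor, read 9.75, 10.02 and 9.98 in fl-CCs and 10.88, 10.73 and 10.76 in mt-CCs. It read 9.82, 9.91 and 9.85 in EV cells and 9.74, 9.71 and 9.77 in R175H cells. The rise in mt-CCs was 0.87 ± 0.09 (adjusted p = 1.0e-05), which was 0.99 ± 0.13 more than the difference with p53 R175H (adjusted p = 8.6e-05). Its other probe set was not called.

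Ifngr1, the ligand-binding chain of the gamma receptor, was the exception. It read 10.03, 10.21 and 10.18 in fl-CCs and 9.99, 10.00 and 10.11 in mt-CCs, which overlap (-0.11, adjusted p = 0.4). It read 10.42, 10.55 and 10.45 in EV cells and 10.09, 10.21 and 10.19 in R175H cells. The difference between R175H and EV cells was -0.31 ± 0.08 (adjusted p = 0.023), and EV cells were 0.33 above fl-CCs (adjusted p = 0.025). The arrays of R175H cells overlapped those of untransfected fl-CCs, a comparison that was not tested. Both calls were lost when single arrays were left out (adjusted p up to 0.089 without EV replicate 2 or 3 or R175H replicate 1 or 3, and up to 0.097 without fl-CC replicate 1 or 3 or EV replicate 2 or 3). Ifnar2, Ifnar1 and Ifngr2 are close neighbors on chromosome 16 in the RefSeq order of genes. Of the 20 nearest measured genes beside this cluster, 4 were higher and 1 lower in mt-CCs, against 17.0% and 12.8% of the other genes of the chromosome. With p53 R175H, 1 was higher and 3 lower (16.7% and 6.24%). The same count in mt-CCs gave 5 higher and 3 lower beside the Gbp genes (17.2% and 22.0%). It gave 2 and 2 beside the Ifit genes (10.4% and 28.7%) and 3 and 5 beside the Ifitm genes (12.1% and 27.9%).

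Among the sensors of foreign nucleic acid, the arms of the RNA-sensing family moved differently. Ifih1, which encodes the long double-stranded RNA sensor MDA5, read 7.22, 7.58 and 7.52 in fl-CCs and 7.0, 7.30 and 7.46 in mt-CCs. It read 7.47, 7.52 and 7.29 in EV cells and 8.11, 8.30 and 8.52 in R175H cells. R175H cells lay above every other array, with a rise of 0.88 ± 0.15 over EV cells (adjusted p = 0.0011), and mt-CCs did not differ from fl-CCs beyond the spread (-0.19, adjusted p = 0.39). The difference between the settings was -1.07 ± 0.21 (adjusted p = 0.0020).

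Ddx58, which encodes RIG-I, a sensor of short RNA ends, read 6.62, 6.39 and 6.60 in fl-CCs and 7.09, 7.51 and 7.45 in mt-CCs. It read 6.42, 6.50 and 6.08 in EV cells and 6.99, 6.67 and 6.91 in R175H cells. It was higher in both settings, by 0.81 ± 0.14 (adjusted p = 0.00095) and 0.52 ± 0.14 (adjusted p = 0.023). The rise with p53 R175H did not pass without EV replicate 3 or R175H replicate 1 or 3 (adjusted p up to 0.095), and another probe set of Ddx58 was higher in mt-CCs (1.28) but not with p53 R175H. Dhx58, which encodes LGP2, a helicase that modulates both sensors, read 3.56, 3.60 and 3.69 in fl-CCs and 4.28, 4.64 and 5.44 in mt-CCs. It was called higher (adjusted p = 0.0032), but only 1 mt-CC array was above 5, so no size is given. Zbp1, a sensor of Z-form nucleic acids, had means of 5.39 to 5.53 in the 4 groups and was not called. Another probe set of Zbp1, near background in all groups, was called higher in mt-CCs (adjusted p = 0.048) and lower with p53 R175H (adjusted p = 0.028).

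Of the transcription factors, Irf9, the DNA-binding partner of STAT2, was higher in both settings by nearly the same amount. It read 5.85, 6.46 and 6.80 in fl-CCs and 7.38, 7.45 and 7.25 in mt-CCs. It read 6.52, 6.61 and 6.13 in EV cells and 7.67, 7.31 and 7.22 in R175H cells. The rises were 0.99 ± 0.21 (adjusted p = 0.0035) and 0.98 ± 0.21 (adjusted p = 0.0064), and their difference was 0.01 ± 0.30.

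Stat2 itself went the other way with p53 R175H. It read 6.96, 7.75 and 7.66 in fl-CCs and 6.95, 7.06 and 7.32 in mt-CCs, which overlap. It read 8.03, 7.87 and 8.02 in EV cells and 7.50, 7.42 and 7.11 in R175H cells. The fall was -0.63 ± 0.19 (adjusted p = 0.035), and it was lost without any 1 of the EV arrays or without R175H replicate 2 or 3 (adjusted p up to 0.13). Its other probe set was not called. Irf1, a factor induced by interferon gamma and by NFκB, read 10.06, 9.88 and 10.14 in fl-CCs, 10.88, 10.78 and 10.73 in mt-CCs, 10.09, 10.08 and 9.99 in EV cells and 9.79, 10.17 and 10.11 in R175H cells. It was higher by 0.77 ± 0.11 in mt-CCs (adjusted p = 0.00019), with -0.03 with p53 R175H, and the difference between these was 0.80 ± 0.16 (adjusted p = 0.0023). Irf7, which amplifies the type I response, and Irf8, a factor of blood cells, were not called in either comparison.

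The IFIT genes, whose proteins bind viral RNA, had 3 patterns although they are neighbors. Ifit3 read 7.72, 8.17 and 8.11 in fl-CCs and 6.31, 6.26 and 6.17 in mt-CCs. It read 8.23, 8.37 and 8.75 in EV cells and 7.65, 8.59 and 8.31 in R175H cells. It was lower by -1.75 ± 0.21 in mt-CCs (adjusted p = 4.7e-05), the lowest values of all arrays, and differed by -0.26 with p53 R175H (adjusted p = 0.47). The difference between the settings was -1.49 ± 0.30 (adjusted p = 0.0028).

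Ifit2 read 8.16, 7.27 and 7.44 in fl-CCs and 7.67, 7.49 and 7.78 in mt-CCs, which overlap. It read 7.62, 7.31 and 7.54 in EV cells and 8.62, 8.46 and 8.26 in R175H cells. With p53 R175H it rose by 0.95 ± 0.20 (adjusted p = 0.0046), and in mt-CCs the difference was 0.03. Ifit1 read 5.04, 4.99 and 4.94 in fl-CCs and 4.83, 5.20 and 5.55 in mt-CCs. It read 5.87, 6.01 and 6.07 in EV cells and 5.32, 4.62 and 4.63 in R175H cells. EV cells were above all other groups, by 0.99 ± 0.20 over fl-CCs (adjusted p = 0.0062), and Ifit1 was lower by -1.12 ± 0.20 in R175H than in EV cells (adjusted p = 0.0016). The values of R175H cells overlapped those of untransfected fl-CCs.

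The 2′-5′ oligoadenylate synthetase family, which senses double-stranded RNA and turns on RNase L, was split as well. Oas3 read 4.42, 4.84 and 4.74 in fl-CCs and 6.22, 6.64 and 6.61 in mt-CCs, a rise of at least 1.49 (adjusted p = 7.1e-05). It read 4.81, 4.64 and 3.87 in EV cells and 3.71, 4.30 and 3.93 in R175H cells, all near background. Oasl1, a family member without the enzyme activity, read 4.09, 4.97 and 4.78 in fl-CCs and 3.36, 3.35 and 3.80 in mt-CCs. It read 5.54, 5.76 and 4.99 in EV cells and 3.77, 4.24 and 3.89 in R175H cells, which is at least 0.43 lower in R175H than in EV cells (adjusted p = 0.0012). It was called lower in mt-CCs too (adjusted p = 0.0042), where both groups were near background. Oasl2 read 3.87, 3.92 and 3.84 in fl-CCs and 4.72, 4.06 and 4.63 in mt-CCs and was called higher near background, a call lost without mt-CC replicate 1 or 3 (adjusted p = 0.052 and 0.051).

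Isg20, an RNA exonuclease, was well measured in every group, with values of 10.72, 10.74 and 10.60 in fl-CCs and 10.57, 10.47 and 10.62 in mt-CCs. It read 10.53, 10.52 and 10.48 in EV cells and 10.13, 9.97 and 9.94 in R175H cells, the lowest of all arrays. The difference with p53 R175H was -0.50 ± 0.08 (adjusted p = 0.0012), and mt-CCs differed from fl-CCs by -0.13 (adjusted p = 0.27). Rsad2, which encodes viperin, stayed near background in every array, and Oas2 had means of 5.12 to 5.49 and was not called. Of the 9 genes of this group, 2 were higher and 2 lower in mt-CCs (22.2% each, against 18.3% and 17.7% of all genes). Of these, Oasl2 and Oasl1 were near background in both groups. With p53 R175H, 1 was higher and 3 lower (11.1% and 33.3%, against 13.0% and 12.1% of all genes).

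Usp18, the protease that removes ISG15 from proteins and damps the type I receptor, was near background in all arrays. Of the E3 ligases, Trim21, a cytosolic antibody receptor, read 7.67, 7.88 and 7.79 in fl-CCs and 8.10, 8.33 and 8.52 in mt-CCs. It was higher by 0.54 ± 0.11 (adjusted p = 0.0030) without overlap of the arrays, and its other probe set was not called. Trim30a read 2.90, 3.10 and 3.0 in fl-CCs and 4.02, 4.79 and 4.37 in mt-CCs and was called higher near background (adjusted p = 0.00010). Trim25, which ubiquitinates RIG-I, had means of 12.49 to 12.54, and was not called in any comparison.

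Of 7 interferon-induced guanosine triphosphatases, 4 were higher and 1 was lower in mt-CCs (57.1% and 14.3%, against 18.3% and 17.7% of all genes). Gbp2, a guanylate-binding protein that attacks the vacuoles of intracellular pathogens, read 4.78, 5.32 and 5.50 in fl-CCs and 8.90, 9.07 and 8.98 in mt-CCs. It read 5.60, 5.01 and 4.39 in EV cells and 5.10, 5.65 and 5.77 in R175H cells. The mt-CC arrays lay far above every other array, with a rise of 3.78 ± 0.28 (adjusted p = 5.2e-07). The difference with p53 R175H was 0.51 ± 0.28 (adjusted p = 0.25), while the other probe set of Gbp2 was called higher there with both means under 5 (adjusted p = 0.026) and rose in mt-CCs by at least 2.77. Its neighbor Gbp3 read 3.34, 3.27 and 2.90 in fl-CCs and 4.73, 5.62 and 5.76 in mt-CCs, a rise of at least 0.37 (adjusted p = 3.9e-05), and was near background in EV and R175H cells.

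The immunity-related GTPases, which work on the same vacuoles, followed other patterns. Igtp read 6.88, 7.31 and 7.45 in fl-CCs and 8.39, 8.40 and 8.18 in mt-CCs, with EV cells (7.97, 7.83 and 8.02) and R175H cells (7.86, 7.92 and 7.99) between them. It rose by 1.11 ± 0.13 in mt-CCs (adjusted p = 4.3e-05) and also by 0.73 ± 0.13 in EV cells over fl-CCs (adjusted p = 0.0041), with -0.02 between R175H and EV cells. Irgm1 read 7.95, 7.95 and 8.11 in fl-CCs and 8.01, 8.0 and 7.65 in mt-CCs. It read 9.36, 8.97 and 9.07 in EV cells and 8.68, 8.84 and 8.57 in R175H cells. Both transfected groups lay above both untransfected ones. EV cells were 1.13 ± 0.13 above fl-CCs (adjusted p = 0.00016), and R175H cells were lower than EV cells by -0.44 ± 0.13 (adjusted p = 0.034). The latter call was lost without EV replicate 1 or 3 or R175H replicate 1 or 3 and in a fit on the arrays compared alone (adjusted p up to 0.14).

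Iigp1 was called higher in mt-CCs (adjusted p = 0.012) with all arrays of both groups near background. The myxovirus resistance genes showed little signal. Mx2 read 3.72, 3.70 and 3.51 in fl-CCs and 2.99, 3.39 and 3.02 in mt-CCs, a call near background (adjusted p = 0.032) that was lost without mt-CC replicate 1 or 3 or fl-CC replicate 1 or 2 (adjusted p up to 0.10). Mx1 was not called (adjusted p = 0.080 in mt-CCs).

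Ifitm3, a membrane protein that blocks the entry of enveloped viruses, had the largest rise of all members. It read 8.82, 8.53 and 8.80 in fl-CCs and 12.90, 12.98 and 13.01 in mt-CCs. It read 7.66, 7.60 and 7.84 in EV cells and 8.15, 8.40 and 8.03 in R175H cells. The rise in mt-CCs was 4.25 ± 0.12 (adjusted p = 7.2e-11). With p53 R175H it was 0.50 ± 0.12 over EV cells (adjusted p = 0.010). EV cells differed from fl-CCs by -1.02 ± 0.12 (adjusted p = 0.00015), and R175H cells lay below every fl-CC array. Its ISRE cores lie after the start, from bases 3 and 20.

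Bst2, which encodes tetherin, a protein that holds budding virus at the cell surface, moved in opposite directions. It read 7.91, 7.79 and 7.86 in fl-CCs and 8.73, 8.79 and 8.60 in mt-CCs. It read 7.78, 7.77 and 7.82 in EV cells and 7.52, 7.53 and 7.40 in R175H cells. It was higher by 0.85 ± 0.08 in mt-CCs (adjusted p = 6.1e-06) and lower by -0.31 ± 0.08 with p53 R175H (adjusted p = 0.018), a fall that did not pass without EV replicate 3 or R175H replicate 3 (adjusted p = 0.060 and 0.075). The difference between the settings was 1.16 ± 0.12 (adjusted p = 1.2e-05).

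All 4 of the other induced genes were higher in mt-CCs, against 18.3% of all genes. Parp14, an ADP-ribosyltransferase, read 5.63, 5.86 and 6.19 in fl-CCs and 8.64, 8.30 and 8.41 in mt-CCs. It read 5.74, 6.10 and 5.49 in EV cells and 6.57, 6.0 and 6.48 in R175H cells. The rise in mt-CCs was 2.56 ± 0.20 (adjusted p = 7.5e-07), and the difference of 0.57 with p53 R175H, where the arrays overlapped, did not pass (adjusted p = 0.059). Its relative Parp9 read 8.25, 8.40 and 8.38 in fl-CCs and 9.47, 9.51 and 9.64 in mt-CCs and was higher there by 1.20 ± 0.10 (adjusted p = 1.2e-06), with 0.25 for p53 R175H (adjusted p = 0.099). Xaf1, an inducer of apoptosis, read 6.03, 7.18 and 6.90 in fl-CCs and 8.59, 8.27 and 8.67 in mt-CCs. It read 7.56, 7.76 and 7.53 in EV cells and 7.46, 7.07 and 7.66 in R175H cells, and rose by 1.81 ± 0.25 in mt-CCs (adjusted p = 0.00013).

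Ifi35, which binds the related protein NMI, read 10.63, 10.21 and 10.57 in fl-CCs and 11.86, 11.77 and 11.70 in mt-CCs. It read 11.06, 11.06 and 11.25 in EV cells and 10.78, 10.33 and 10.78 in R175H cells. It was higher by 1.30 ± 0.14 in mt-CCs (adjusted p = 1.7e-05) in all 3 of its probe sets. It was lower by -0.50 ± 0.14 with p53 R175H (adjusted p = 0.026), a call lost without any 1 of the EV arrays or R175H replicate 2 (adjusted p up to 0.10), and its other probe sets were not called there.

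**Figure D4:**
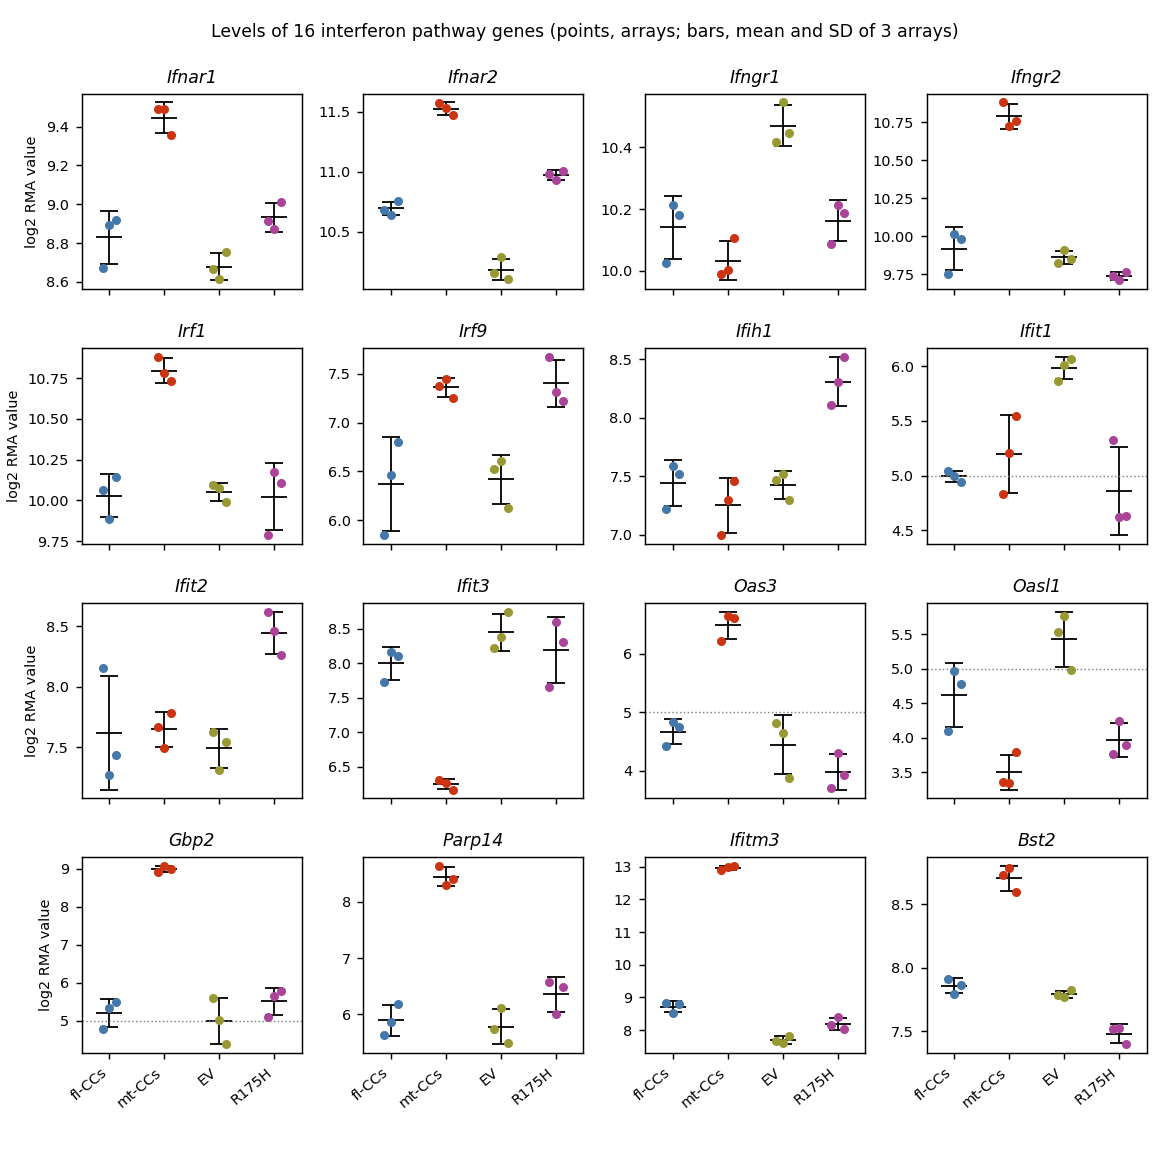
Log2 values of 16 members in every array, by group (points), with the mean and SD of 3 arrays (bars); each panel has its own y axis and the dotted line marks a log2 value of 5. Ifitm3, Gbp2 and Parp14 are high in mt-CCs only, Irf9 is high in mt-CCs and R175H cells, Ifih1 and Ifit2 are highest in R175H cells and Ifit1 and Oasl1 in EV cells.

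EV cells, which carried the empty vector and were grown with G418, differed from fl-CCs in several members. In EV cells, 7 members were higher than in fl-CCs and 2 were lower, against 7.84% and 7.24% of all genes. The higher ones were Ifngr1, Ifit1, Usp18 (near background), Irgm1, Igtp, Ifi35 (0.65 ± 0.14, adjusted p = 0.010) and Xaf1 (0.92 ± 0.25, adjusted p = 0.033), and the lower ones Ifnar2 and Ifitm3. Of the probe sets of Ifi35, 2 were higher (0.65 and 0.49) and the third differed by 0.02, and with the mean of its probe sets Ifi35 was not called. Xaf1 was lost without fl-CC replicate 1 or any 1 of the EV arrays (adjusted p up to 0.10), and Usp18 without any 1 of the fl-CC arrays or EV replicate 2 or 3 (adjusted p up to 0.16). Without fl-CC replicate 1 or EV replicate 2, 4 were higher. The comparison with p53 R175H shares the EV arrays, so the values of the EV arrays enter both with opposite signs. Side by side, EV minus fl-CCs and R175H minus EV were 0.33 and -0.31 for Ifngr1, 0.99 and -1.12 for Ifit1, 1.13 and -0.44 for Irgm1, and 0.65 and -0.50 for Ifi35. For Ifnar2 they were -0.51 and 0.79, and for Ifitm3 -1.02 and 0.50. EV cells differed from fl-CCs in the vector and in G418, and these cannot be told apart.

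The wider pathway was read in 85 further genes listed by role, of which 71 were measured. In mt-CCs, 23 were higher and 14 lower (32.4% and 19.7%, against 18.3% and 17.7% of all genes). With p53 R175H, 13 were higher and 14 lower (18.3% and 19.7%, against 13.0% and 12.1%). Of 7 interferon ligands measured, none was called in mt-CCs (limma, 0 of 7), and Ifnb1, Ifng, Ifna2 and Ifna4 were near background in every array of all groups. Ifna1 was lower by -0.47 ± 0.13 with p53 R175H (adjusted p = 0.023). Of 7 further kinases, STATs and IRFs, none was higher and 2 were lower in mt-CCs (28.6%, against 17.7% of all genes). These were Irf3, by -0.70 ± 0.10 (adjusted p = 0.00016), and Irf5, by -0.55 (adjusted p = 0.0019).

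Among 11 sensors and adaptors, 4 were higher in mt-CCs (36.4%, against 18.3% of all genes) and none was lower. Sting1, the adaptor of the cytosolic DNA sensor cGAS, had means of 6.49 ± 0.12 in fl-CCs, 11.31 ± 0.09 in mt-CCs, 5.99 ± 0.33 in EV cells and 7.70 ± 0.12 in R175H cells (SD, n = 3). Sting1 was higher by 4.82 ± 0.15 in mt-CCs (adjusted p = 1.6e-10) and by 1.7 ± 0.15 with p53 R175H (adjusted p = 8.0e-06). Aim2, which forms an inflammasome on DNA, had means of 5.49, 9.32, 4.79 and 5.97 in the same order. Its rises were 3.83 ± 0.18 (adjusted p = 9.8e-09) and 1.18 ± 0.18 (adjusted p = 0.00074). With p53 R175H, 4 of the 11 were higher and 2 were lower (36.4% and 18.2%, against 13.0% and 12.1% of all genes). The lower ones were Cgas, by -1.02 ± 0.23 (adjusted p = 0.0071), and the DNA sensor gene Ifi204, by -0.84 ± 0.22 (adjusted p = 0.016). In mt-CCs, Cgas was not called (0.23, adjusted p = 0.51) and Ifi204 was higher by 2.79 (adjusted p = 8.3e-07). Ifi204 was also higher in EV cells than in fl-CCs, by 1.31 (adjusted p = 0.0020). Sting1 and Aim2 were lower in EV cells than in fl-CCs, Sting1 by -0.50 and Aim2 by -0.70 (adjusted p = 0.046 and 0.028).

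Of 37 further induced genes, 16 were higher and 8 lower in mt-CCs (43.2% and 21.6%, against 18.3% and 17.7% of all genes), so the share that was lower was near that of all genes. Ifitm1, next to Ifitm3 in the genome, had a mean of 10.55 ± 0.34 in mt-CCs and was near background in the other 3 groups, a rise of at least 5.55 (adjusted p = 2.6e-11). Their neighbor Ifitm2 rose by 0.52 ± 0.13 (adjusted p = 0.0067). Samd9l, a translation inhibitor, and Slfn2, a regulator of T cell quiescence, were the largest falls, both at -1.94 (adjusted p = 2.1e-08 and 1.2e-07). With p53 R175H they parted, with Samd9l lower by -0.62 (adjusted p = 0.00095) and Slfn2 higher by 0.62 (adjusted p = 0.0034).

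With p53 R175H, 5 of these induced genes were higher and 10 lower (13.5% and 27.0%, against 13.0% and 12.1% of all genes). The share that was higher was thus near that of all genes. Rnase4, a secreted ribonuclease, had means of 8.92 ± 0.09 in EV cells and 11.65 ± 0.10 in R175H cells, a rise of 2.73 ± 0.12 (adjusted p = 3.9e-08), and EV cells were -1.66 below fl-CCs (adjusted p = 5.2e-06). Ube2l6, the enzyme that hands on ISG15, was lower by -1.31 ± 0.22 (adjusted p = 0.0014), Lgals3bp, a secreted glycoprotein, by -1.09 ± 0.09 (adjusted p = 5.3e-06) and Tor3a by -1.05 ± 0.12 (adjusted p = 9.6e-05). All 3 were higher in EV cells than in fl-CCs, by 0.85, 0.46 and 0.67 (adjusted p = 0.029, 0.0056 and 0.0041). Of 9 inhibitors, 3 were higher and 4 lower in mt-CCs (33.3% and 44.4%, against 18.3% and 17.7% of all genes). The largest fall was that of the phosphatase gene Ptpn6 (-0.84 ± 0.10, adjusted p = 3.2e-05).

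**Figure D5:**
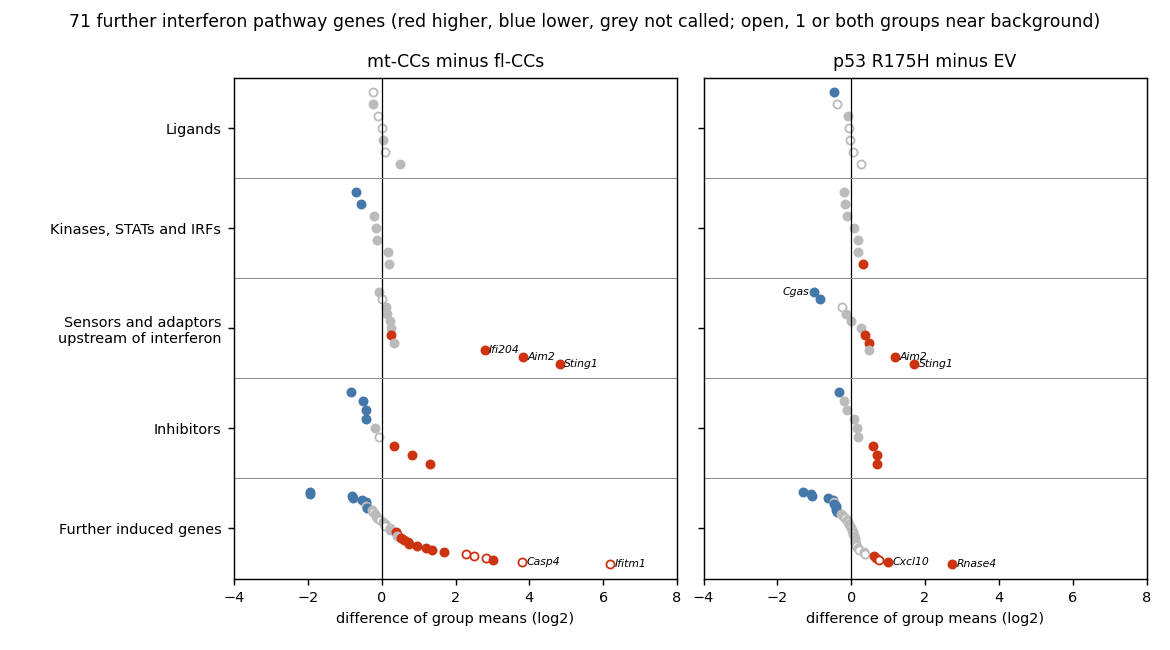
Differences of group means for the 71 further pathway genes by role, mt-CCs minus fl-CCs on the left and p53 R175H minus EV on the right (log2). Red points were called higher, blue lower, grey were not called, and open points had at least 1 group near background; the ligands lie around 0, while Sting1, Aim2 and Ifitm1 are far to the right in mt-CCs.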

How the data were processed

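RNA from 12 cultures was hybridized to Affymetrix mouse expression arrays. The authors made the values with RMA (robust multichip average, version not given in the submitters' processing notes), and the deposited values are log2 values from 1.71 to 14.64. Once sorted, the values of any 2 arrays were within 0.018 of each other, and no further normalization was applied. RMA is fitted over all arrays and pulls large differences of dim probe sets toward 0. As intensities have no counts behind them, the number of arrays limits the precision.

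From these values, the 64 AFFX controls were removed, and the other 45037 of 45101 probe sets entered a limma fit (version 3.58.1, moderated by eBayes, under R 4.3.3) over all 12 arrays, two-sided, with Benjamini-Hochberg adjustment over the probe sets tested and no limit on the fold. The methods of the study state the threshold of 0.05 and name Partek, with the smallest adjusted p standing for a gene; here the probe set with the highest mean stands for it, and that rule is an alternative. Names came from GEO's annotation of the platform, and 18193 genes had a probe set with 1 symbol. The procedure was tested on simulated arrays.

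Where all arrays of 1 group were under 5, a called difference is given as at least the brighter mean minus 5, and where both groups were, no difference is given. Per-array values are given for the receptors and, in each role group, for the 2 largest rises and the 2 largest falls among called members in mt-CCs minus fl-CCs and in p53 R175H minus EV. Those of Igtp, Parp9 and Isg20 fall outside this rule and are given as well. Of the further pathway genes, the 3 largest rises and 3 largest falls in each are named; Ifitm2, Irf3, Irf5, Cgas, Ifi204, the ligands and the cell type markers are named beside them, chosen after their values were seen. The members and all lists were chosen with earlier results of these data known, and the list of neighboring genes was chosen after the values were seen. Promoter sequences and gene order are from RefSeq (GRCm38.p6); the arrays name no build, and 32 of 41 members had a promoter window.

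The alternatives were the choice of probe set, the arrays in the fit, a replicate block, no moderation, an intensity trend, array weights, a filter at a mean of 5, control probe sets kept, median centring, a further quantile normalization, a fold limit, and leaving out each array.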

Additional observations from a re-analysis of the deposited data

Results flagged for a closer look

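For 20 members, the difference between mt-CCs and fl-CCs differed from that between R175H and EV cells by the test of the difference of the differences (limma, adjusted p of 0.05 or less, log2 scale). The settings differ in the cell line, in the p53 form (mouse R172H against human R175H) and in transfection with G418, and these cannot be told apart. With the sign kept, it was above that of p53 R175H for Ifitm3 (3.75), Gbp2 (3.27), Oas3 (2.28), Gbp3 (2.06), Xaf1 (2.03), Parp14 (1.98), Ifi35 (1.80), Trim30a (1.58) and Ifit1 (1.33). It was also above it for Bst2 (1.16), Igtp (1.13), Ifngr2 (0.99), Parp9 (0.95), Irf1 (0.80), Irf7 (0.70), Rsad2 (0.46) and Isg20 (0.37). It was below it for Ifit2 (-0.93), Ifih1 (-1.07) and Ifit3 (-1.49). These are signed differences: the change of Ifit3 was greater in size in mt-CCs (-1.75 against -0.26), and that of Isg20 was greater with p53 R175H (-0.50 against -0.13). The values of Oas3, Gbp3, Trim30a and Rsad2 rest on groups near background and are not sizes of a change. The value for Ifit1 rests on its fall between EV and R175H cells, and Irf7 and Rsad2 were called in neither comparison alone. The calls of Ifit2, Irf7, Isg20 and Rsad2 were lost under some settings (adjusted p up to 0.068, 0.057, 0.094 and 0.091). Irf7 was lost without mt-CC replicate 1, EV replicate 1 or R175H replicate 2, Ifit2 without mt-CC replicate 2, EV replicate 2 or R175H replicate 1 or 2, Rsad2 without R175H replicate 2, and Isg20 without most single arrays.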

How the results depend on the processing

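Of 67 called results of members over the 4 comparisons, 52 kept their call and direction under every alternative in which the gene was tested. The alternatives tried on single genes were all but the fold limit and the choice of probe set. Genes with a mean under 5 were not tested under the filter at a mean of 5, so their results rest on the other alternatives. No called result reversed (1017 values on the same side of the threshold and 74 not). With a limit of 1 on the size of the log2 difference, mt-CCs had 12 members higher and 2 lower, p53 R175H had 0 higher and 2 lower against EV (limma; 6 and 8 without the limit), EV had 1 higher and 1 lower against fl-CCs, and the difference of the differences had 11 higher and 2 lower. A filter on a mean log2 value of at least 5 tested 27 members. It left 15 higher and 1 lower in mt-CCs, against 26.0% and 26.4% of the genes tested there. The other members called in mt-CCs (Dhx58, Oasl1, Oasl2, Oas3, Trim30a, Mx2, Gbp3 and Iigp1) had means under 5 and were not tested. For p53 R175H it gave 8 higher and 8 lower, against 20.8% and 20.1%. With the mean of a gene's probe sets, mt-CCs kept the 24 calls, p53 R175H lost Ddx58, Stat2 and Ifi35 and gained Ifnar1, Irf7 and Parp14, EV minus fl-CCs lost Ifi35 and gained Oasl1 and Trim21, and the difference of the differences lost Rsad2 and gained 7 members (22 higher and 4 lower). With the probe set of the smallest adjusted p, no call was lost, and mt-CCs gained Zbp1, p53 R175H Zbp1 and Gbp2, EV Trim21 and the difference of the differences 5 members. With no moderation, p53 R175H had 5 lower. With only the arrays of the groups compared, EV had 4 higher. Leaving out each replicate in turn gave 20 to 22 higher and 2 to 3 lower in mt-CCs, 5 to 7 higher and 4 to 6 lower with p53 R175H (4 lower without EV replicate 3), 4 to 7 higher and 2 to 3 lower in EV cells, and 14 to 18 higher and 2 to 3 lower for the difference of the differences. The replicate numbers did not pair the arrays (deviations of same-numbered arrays correlated at -0.15 to 0.07, and 2 of 12 arrays correlated best with their own number). With the replicate block, the counts were 21 and 3, 6 and 8, 6 and 2, and 16 and 4. Median centring and a further quantile normalization moved no called result of a member. In 6 of 39 members every array was near background, which limits what can be said of them.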
